A study of Mus musculus with 4 samples.

Results

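The 10 genes described here import, store, export and release iron in cells, break down haem or regulate these steps. They were chosen by name for these roles, not by their values, but with earlier results of these data known. All 10 were found among the 16655 genes that stand in both deposited tables. All 10 also passed the filter on low counts and were among the 15236 genes tested. RNA was sequenced from microglia, brain-resident macrophages, which were sorted by fluorescence from the cortex of C57BL/6 mouse embryos at embryonic day 14. The knockout carries a conditional deletion of Arid1a (Arid1acKO), which encodes a BAF chromatin remodeller subunit, and the control carries the floxed allele (Arid1afl/fl). The labels do not name the Cre that deletes the gene and do not say whether a sample was 1 embryo or a pool. They give 4 samples, 2 of each genotype. The values come from 1 knockout library, Arid1a cKO replicate 2, and 2 controls, replicates 5 and 6 (control 5 and control 6). Knockout replicate 1 has no values in either deposited table, so it was not analysed here.

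Macrophages take up iron bound to transferrin through the transferrin receptor, and also gain it from the haem of red cells that they engulf. Iron that is not used is held in ferritin, a shell of heavy and light chains, or leaves the cell through ferroportin. Iron regulatory proteins bind a hairpin in messenger RNA, the iron-responsive element, when iron is low. Bound in the 5′ UTR of ferritin or ferroportin messages, they block translation, and bound in the 3′ UTR of the transferrin receptor message, they protect it from decay. Transcript levels therefore do not give the protein levels of these genes.

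Matches to the iron-responsive element are shown because the ferritin, ferroportin and transferrin receptor messages are the classic targets of the iron regulatory proteins. The pattern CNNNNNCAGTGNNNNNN was searched in the sense strand of coding transcripts of GENCODE M21, and the last loop base was not G. It had to form 5 pairs between the N runs beside the loop and at least 4 of 5 pairs below the unpaired C, with G-U pairs allowed. It was found in an untranslated region of 14 of 22527 protein-coding genes (0.0621%), and 4 of the 10 members were among them. The capitals mark the unpaired C and the 6 bases of the loop.
Fth1, 5′ UTR, chr19:9982732-9982760, plus strand: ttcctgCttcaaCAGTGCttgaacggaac
Ftl1, 5′ UTR, chr7:45459779-45459807, minus strand: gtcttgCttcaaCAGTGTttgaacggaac
Slc40a1, 5′ UTR, chr1:45925465-45925493, minus strand: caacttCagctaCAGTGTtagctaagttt
Tfrc, 3′ UTR, chr16:32631219-32631247, plus strand: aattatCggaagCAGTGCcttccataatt
Tfrc, 3′ UTR, chr16:32631598-32631626, plus strand: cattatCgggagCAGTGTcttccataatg
Tfrc, 3′ UTR, chr16:32631663-32631691, plus strand: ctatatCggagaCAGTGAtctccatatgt
Tfrc, 3′ UTR, chr16:32631710-32631738, plus strand: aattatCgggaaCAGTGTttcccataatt
These positions are on GRCm38. The pattern matched no untranslated region of the other 6 members, and matches that touched coding sequence were not kept. This says only that these letters and pairs were not in the untranslated regions searched.

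The knockout library had 17262261 counted reads, against 18608979 in control 5 and 13774075 in control 6. Of the genes in both deposited tables, 175 were at 0 in the knockout library, against 2696 in control 5 and 1219 in control 6. Both tables hold the same knockout library, so this set can hold genes read in the knockout alone. Gata1 is 1 such gene, with 50 reads in the knockout library and 0 in each control. Steap4, with 10 reads in control 6 alone, stood in 1 table and was left out. These counts of 0 therefore do not compare the libraries evenly. With genes of either table, the median log2 fold change of all genes tested was 0.026, against 0.048 with genes in both. How much this choice adds to the shares of all genes given below was not tested. Arid1a had 68.9 CPM (reads scaled to library size with TMM factors, as all CPM below) in the knockout library, against 109 CPM in control 5 and 130 CPM in control 6, so it was lowest where the label says it was deleted. Its log2 fold change of -0.80 (SE 0.41) did not pass the test over all genes (adjusted p = 0.901, edgeR). Of all genes, 31.1% were below both controls, so this order alone does not show the deletion. All 10 microglia markers looked up were detected in every library. The most abundant of them, P2ry12, had 4073 CPM in the knockout library and 7843 ± 892 CPM in controls (SD, n = 2). Knockout values have no replicate error. The p-values rest on the spread between the 2 controls, which the fit moderates with that of all other genes. The labels do not say that the controls came from separate animals.

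None of the 10 members passed the test over all genes (edgeR quasi-likelihood, Benjamini-Hochberg adjusted, threshold 0.05), a test that called 6 of 15236 genes (0.0394%). The members furthest from both controls were Fth1, the ferritin heavy chain, 2.72-fold and 2.40-fold above control 5 and control 6, and Slc11a1, a phagosome metal transporter, at 0.399 and 0.251 of those controls. These 2 had an unadjusted p under 0.05, as 6.00% of all genes did. Fth1 was the 1 member 2-fold or more above both controls (9.84% of all genes were) and Slc11a1 the 1 member 2-fold or more below both (7.56%). The DESeq2 Wald test, an alternative test on the same counts, called both (Fth1 adjusted p = 0.00389, Slc11a1 adjusted p = 0.00838) and 1.84% of the genes to which it gave an adjusted p. The knockout was above both controls in 5 members, Tfrc, Fth1, Ftl1, Slc40a1 and Blvrb, where 38.0% of all genes were. It was below both in 3, Slc11a1, Ncoa4 and Ireb2, where 31.1% of all genes were, and between them in 2, Slc11a2 and Hmox1, where 30.9% of all genes were. These shares lie near those of all genes. The median log2 fold change of the members was 0.04, beside 0.05 for all genes tested. Taken over control 5 alone it was 0.35, and over control 6 alone -0.18.

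**Figure D1:**
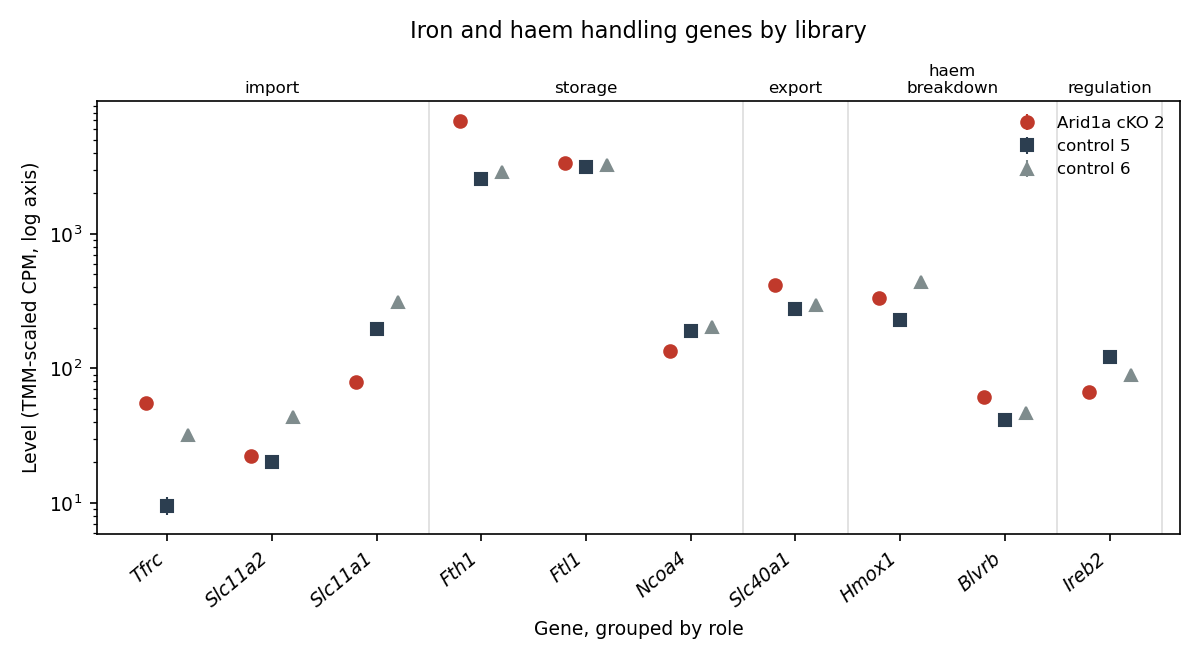
Level of each of the 10 genes in TMM-scaled CPM on a log axis, grouped by role, with 1 point per library and exact Poisson 95% intervals, most of which are smaller than the points. Fth1 in the knockout library stands at 6943 CPM above both controls, and Slc11a1 stands at 78.7 CPM below both.

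Among the import genes, Tfrc was highest in the knockout library, Slc11a1 was lowest there, and Slc11a2 lay between the controls. Tfrc, the transferrin receptor (ENSMUSG00000022797, chromosome 16, 32608920 to 32632794, plus strand), was covered by 1015 reads in the knockout library, against 171 in control 5 and 428 in control 6. Its level was 55.6 CPM in the knockout library, against 9.55 CPM in control 5 and 31.7 CPM in control 6. Exact Poisson 95% intervals ran from 52.2 to 59.1 CPM in the knockout library, 8.17 to 11.1 CPM in control 5 and 28.8 to 34.9 CPM in control 6. These intervals, which cover counting error only, do not overlap, so the controls differed from each other by far more than counting error. The knockout was 5.82-fold above control 5 and 1.75-fold above control 6. With a fitted log2 fold change of 1.43 (SE 0.68), Tfrc was not called (adjusted p = 0.878, edgeR). Erythroid precursors also carry much Tfrc, and their markers are given in the last paragraph.

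Slc11a1, also known as Nramp1 (ENSMUSG00000026177, chromosome 1, 74375195 to 74386062, plus strand), moves iron and manganese out of the phagosome. C57BL/6 mice, the labelled strain, carry a loss-of-function allele of it. The reads numbered 1437 in the knockout library, against 3530 in control 5 and 4223 in control 6. Scaled, these were 78.7 CPM in the knockout library, against 197 CPM in control 5 and 313 CPM in control 6. The groups did not overlap, and the gap between the knockout and the nearer control was wider, as a ratio, than that between the controls. Its log2 fold change of -1.70 (SE 0.45) had an adjusted p of 0.435 (edgeR), which is not a call.

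Slc11a2, also known as DMT1 (ENSMUSG00000023030, chromosome 15, minus strand), carries ferrous iron across endosomal membranes after the transferrin receptor has brought it in. It had 22.3 CPM in the knockout library, against 20.2 CPM in control 5 and 43.4 CPM in control 6. The knockout thus lay close to control 5, and the controls differed from each other by 1.10 on the log2 scale. The fit gave a log2 fold change of -0.51 (SE 0.62, adjusted p = 1.000, edgeR). A gene on the opposite strand, Gm5475, covers 6.33% of its exon bases. The ratio of Slc11a1 to its paralog Slc11a2, per length, was 4.60 in the knockout library, against 12.7 in control 5 and 9.42 in control 6.

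Among the storage genes, the ferritin heavy chain message stood far above both controls while the light chain message stood close to them. Fth1 (ENSMUSG00000024661, chromosome 19, 9982703 to 9985092, plus strand) encodes the chain that oxidises ferrous iron for storage. It was read 126836 times in the knockout library, against 45761 in control 5 and 38976 in control 6. These reads came to 6943 CPM in the knockout library, against 2556 CPM in control 5 and 2888 CPM in control 6. The controls lay within 0.18 of each other on the log2 scale, and the knockout was 1.44 and 1.27 above control 5 and control 6. Fitted over both controls, the log2 fold change was 1.35 (SE 0.28), which was not called (adjusted p = 0.232, edgeR). By read count, Fth1 was the gene ranked 5 in the knockout library, against 38 in control 5 and 27 in control 6.

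Ftl1, the ferritin light chain, which helps to form the iron core (ENSMUSG00000050708, chromosome 7, 45457944 to 45459884, minus strand), had 3371 CPM in the knockout library, against 3126 CPM in control 5 and 3277 CPM in control 6. The knockout was highest by 0.11 and 0.04 on the log2 scale, and the log2 fold change was 0.07 (SE 0.29, adjusted p = 1.000, edgeR). The 2 chains made up 1.09% of all counted reads in the knockout library, against 0.547% in control 5 and 0.604% in control 6. Per length (CPM per kilobase of the principal transcript), the heavy chain message stood at 2.15 times the light chain message in the knockout library, against 0.852 times in control 5 and 0.918 times in control 6. On this length, and by reads, the heavy chain was the more abundant message in the knockout library and the less abundant in both controls. With the union of all exons as the length it was the less abundant in all 3 libraries, at 0.795, 0.316 and 0.340 times in the knockout library, control 5 and control 6. For Fth1 that union has 3469 bases in GENCODE M21, more than the whole deposited span of the gene, so it may overstate the length counted. With 1 knockout library the higher ratio of heavy to light chain there has no replicate check. The difference between the responses of the 2 genes was not tested.

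**Figure D2:**
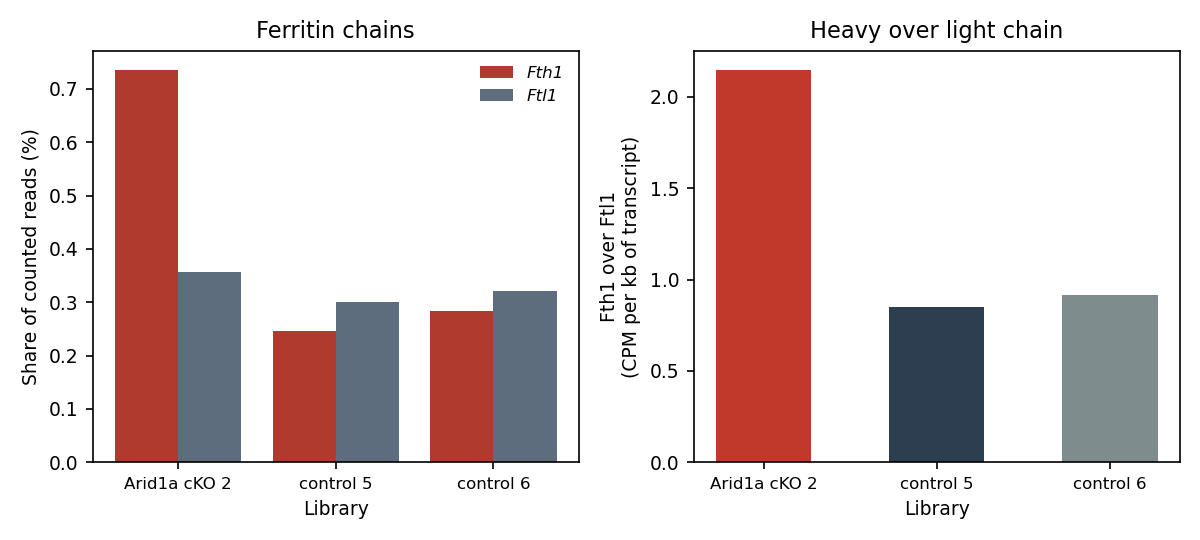
Left, share of counted reads (percent) for Fth1 and Ftl1 in each library; right, the ratio of Fth1 to Ftl1 in CPM per kilobase of transcript, with both axes starting at 0. Fth1 takes 0.735% of reads in the knockout library, against 0.246% in control 5 and 0.283% in control 6, while Ftl1 lies between 0.301% and 0.357% in all 3.

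Both ferritin genes have copies named as pseudogenes, among which the counting could divide reads, though how alike the copies are was not measured. Ftl1-ps1, named as a pseudogene but typed as protein-coding, had 605 reads in the knockout library, against 659 in control 5 and 358 in control 6. The processed pseudogene Fth-ps2 had 28 reads in the knockout library, against 3 in control 5 and 6 in control 6. Another processed pseudogene, Ftl2-ps, had 167 reads in the knockout library, against 97 in control 5 and 68 in control 6. A gene on the opposite strand, Gm10252, covers 26.5% of the exon bases of Ftl1, and a gene on the same strand, Gm22133, covers 8.13%. How reads over these overlaps were counted is not given in the sources used here.

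Ncoa4, the receptor that delivers ferritin to lysosomes for release of its iron (ENSMUSG00000056234, chromosome 14, plus strand), had 134 CPM in the knockout library, against 190 CPM in control 5 and 203 CPM in control 6. The knockout was below both controls, which lay within 0.10 of each other on the log2 scale. Its log2 fold change was -0.56 (SE 0.37, adjusted p = 0.959, edgeR).

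Slc40a1, or ferroportin, the only known exporter of iron from animal cells (ENSMUSG00000025993, chromosome 1, 45908068 to 45926523, minus strand), gave 7582 reads in the knockout library, against 4980 in control 5 and 3962 in control 6. It stood at 415 CPM in the knockout library, against 278 CPM in control 5 and 294 CPM in control 6. That is 1.49-fold above control 5 and 1.41-fold above control 6, and the controls lay within 0.08 of each other on the log2 scale. A log2 fold change of 0.54 (SE 0.34) was not called (adjusted p = 0.959, edgeR). The ratio of Tfrc to Slc40a1 per length, import over export, was 0.0923 in the knockout library, against 0.0237 in control 5 and 0.0744 in control 6, so the knockout lay closer to control 6 than the controls lay to each other.

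Of the genes of haem breakdown, Hmox1 lay between the controls and Blvrb stood above both. Hmox1, haem oxygenase, which opens the haem ring and frees its iron (ENSMUSG00000005413, chromosome 8, 75093621 to 75100589, plus strand), had 334 CPM in the knockout library, against 228 CPM in control 5 and 439 CPM in control 6. The knockout lay between controls that differed by 0.94 on the log2 scale, and the log2 fold change was 0.00 (SE 0.45, adjusted p = 1.000, edgeR). Blvrb, a biliverdin and flavin reductase that acts after haem oxygenase (ENSMUSG00000040466, chromosome 7, plus strand), had 60.8 CPM in the knockout library and 43.8 ± 3.39 CPM in controls (SD, n = 2). It was 1.47-fold above control 5 and 1.31-fold above control 6, with a log2 fold change of 0.47 (SE 0.43, adjusted p = 1.000, edgeR).

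Ireb2, or iron regulatory protein 2, one of the proteins that bind the hairpins shown above (ENSMUSG00000032293, chromosome 9, 54863789 to 54912530, plus strand), had 66.8 CPM in the knockout library, against 121 CPM in control 5 and 89.9 CPM in control 6. The knockout was lowest by 0.86 and 0.43 on the log2 scale, while the controls differed by 0.43. Its log2 fold change was -0.66 (SE 0.42, adjusted p = 0.959, edgeR). Of the members with a match to the hairpin pattern, Fth1, Ftl1, Slc40a1 and Tfrc, all 4 were highest in the knockout library, by amounts that ran from 0.04 to 2.53 on the log2 scale over single controls, and none was called. Among all genes 38.0% were above both controls. Of the other 10 genes with a match, 8 were tested, of which 3 were above both controls, 3 below and 2 between.

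**Figure D3:**
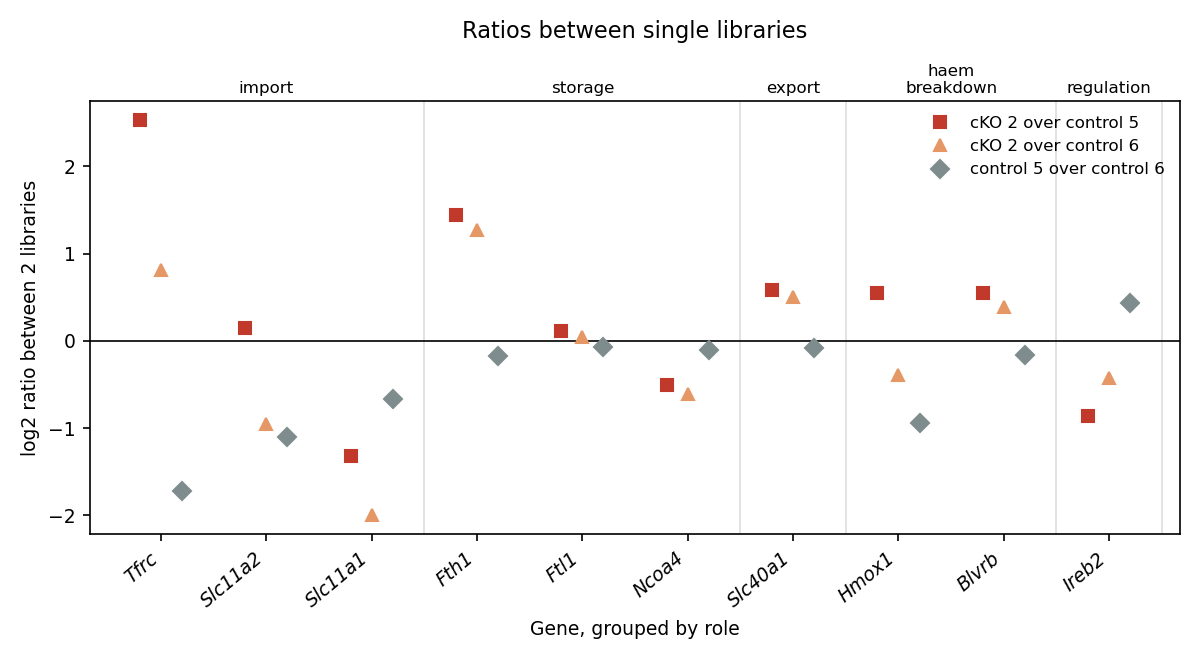
For each gene, the log2 ratio of the knockout library over control 5 (squares), over control 6 (triangles), and of control 5 over control 6 (diamonds). The ratios of the knockout over both controls lie close together for Fth1 (1.44 and 1.27), and far apart for Tfrc (2.53 and 0.81), where the controls themselves differ by 1.72.

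The controls differed from each other by a median of 0.31 on the log2 scale over the 10 members, beside 0.58 over all genes tested. Over the genes with a mean of 5 CPM or more, as all 10 members had, the median was 0.42. Tfrc and Slc11a2 were the 2 members in which that difference exceeded 1. The order of levels per length was the same in both controls, with Ftl1 first, then Fth1, Hmox1, Slc11a1, Slc40a1, Ncoa4, Blvrb, Ireb2, Slc11a2 and Tfrc last. In those libraries Slc11a1 and Slc40a1 were near neighbours in control 5, at 85.2 and 82.5 CPM per kilobase, and wider apart in control 6, at 135 and 87.1. In the knockout library Fth1 came first with 7474 CPM per kilobase and Ftl1 second with 3483, and Hmox1 followed with 213. Slc11a1 stood below Slc40a1, Blvrb and Ncoa4 there, with 34.0 CPM per kilobase. Ireb2 and Tfrc had 11.6 and 11.4 CPM per kilobase in the knockout library, with overlapping counting intervals, and Slc11a2 came last with 7.38.

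The authors' deposited table with control 5 marked Tfrc as significant, with a fold of 6.40, and the authors' deposited table with control 6 marked Slc11a1, with a fold of 0.272. These were the only member marked in each table, where the authors' deposited tables marked 29.5% and 18.7% of all their genes. Fth1, with folds of 2.99 and 2.60 in the authors' deposited tables, was marked in neither. Against control 5, Fth1 and Slc11a1 were unmarked although the authors' adjusted p was lower for each than for Tfrc. The mark thus did not rest on the p-value alone, and its absence is not a failed test. Both tables hold the same knockout library, so their folds are not independent.

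Of 82 genes in 7 wider lists of iron and haem genes, 66 were tested and none was called (edgeR), with 4 at an unadjusted p under 0.05, a share near the 6.00% of all genes. Those 4 were Fth1, Slc11a1, Hfe and Alas1. The knockout was above both controls in 32 of the 66, below both in 17 and between them in 17, beside 38.0%, 31.1% and 30.9% of all genes. Without the 10 members, 27 of 56 were above both controls and 14 below both, and the median log2 fold change was 0.29, beside 0.05 for all genes.

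The iron uptake list had 9 tested genes, 3 above both controls and 3 below, with a median of -0.79. Over its 7 tested genes with a mean of 5 CPM or more, the median was -0.51. Hfe, a membrane protein that binds the transferrin receptor, had 116 CPM in the knockout library and 243 ± 26.5 CPM in controls (SD, n = 2), with a log2 fold change of -1.07 (SE 0.38, adjusted p = 0.720, edgeR). Lrp1, an endocytic receptor that clears haem bound to haemopexin, had 614 CPM in the knockout library, against 277 CPM in control 5 and 594 CPM in control 6. The median of this list was -1.17 over control 6 alone and 0.14 over control 5 alone, and its median log2 ratio of control 5 over control 6 was -1.10. Beside ferritin and Ncoa4, the storage list held Pcbp1, an iron chaperone for ferritin, at 138 CPM in the knockout library and 89.2 ± 16.8 CPM in controls, and Pcbp2, at 25.9 against 34.4 ± 2.46 CPM (SD, n = 2), whose exons overlap genes on the opposite strand over 32.7% of their bases. The medians were 0.07 for storage (3 of 5 tested genes above both controls and 2 below) and 0.54 for export (2 of 3 above both). Cp, ceruloplasmin, the oxidase that loads exported iron onto transferrin, had 9.03 CPM in the knockout library, against 2.29 CPM in control 5 and 1.70 CPM in control 6 (log2 fold change 2.17, SE 1.08, adjusted p = 0.895, edgeR), and Neo1 had 7.34 CPM against 11.8 and 7.26 CPM.

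In the list of haem uptake and breakdown, 5 of 12 tested genes were above both controls and 2 below, with a median of 0.29 (0.55 over control 5 alone and -0.00047 over control 6 alone). Blvra, the main biliverdin reductase, had 217 CPM in the knockout library, against 208 CPM in control 5 and 145 CPM in control 6. Abcg2, a pump that can export haem, had 123 CPM in the knockout library and 145 ± 11.9 CPM in controls (SD, n = 2). Haem synthesis had 7 of 11 tested genes above both controls and 3 below, with a median of 0.30. Alas1, which makes the first precursor and sets the rate of synthesis in most cells, had 243 CPM in the knockout library and 570 ± 65.6 CPM in controls (SD, n = 2), with a log2 fold change of -1.23 (SE 0.37, adjusted p = 0.549, edgeR).

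The list of mitochondrial iron and iron-sulphur cluster genes had 8 of 15 tested genes above both controls and 3 below, with a median of 0.42 (0.024 over control 5 alone and 0.41 over control 6 alone). Its most abundant genes were Hspa9, a chaperone of cluster transfer, at 268 CPM in the knockout library and 194 ± 10.3 CPM in controls (SD, n = 2), and Iscu, the scaffold on which clusters form, at 197 CPM against 194 CPM in control 5 and 99.4 CPM in control 6. Among regulators, 4 of 11 tested genes were above both controls and 4 below, with a median of 0.27 (0.27 over control 5 alone and -0.13 over control 6 alone). Nfe2l2, which activates Hmox1 and ferritin genes under oxidative stress, had 243 CPM in the knockout library and 278 ± 17.4 CPM in controls, and Hif1a had 232 CPM against 211 ± 33.7 CPM (SD, n = 2). Chosen after their values were seen, Aco1 and Fbxl5 are the partners of Ireb2 in iron sensing, the other iron regulatory protein and the ligase that removes Ireb2 when iron is plentiful. Aco1 had 66.9 CPM in the knockout library, against 75.2 and 119.7 CPM in control 5 and control 6, and Fbxl5 had 34.4 CPM against 65.4 and 44.0 CPM. Neither was called.

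**Figure D4:**
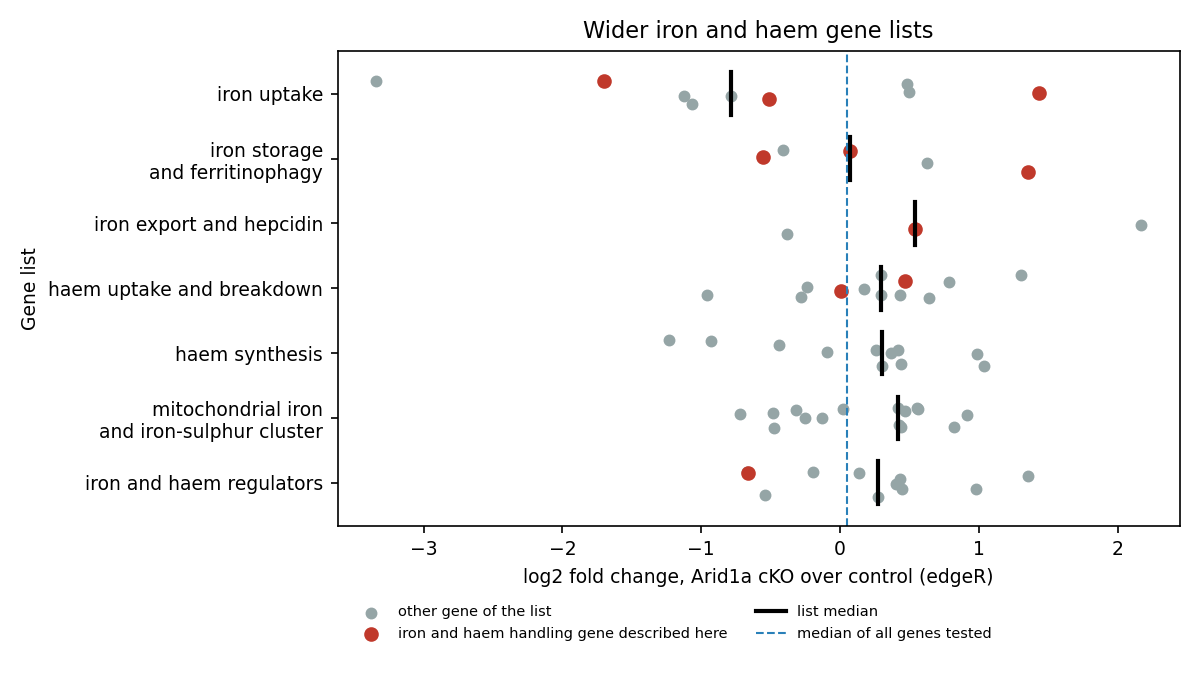
Log2 fold change of the knockout over controls for each tested gene of the 7 lists, with the 10 genes described here in red, the others in grey, list medians as black bars and the median of all genes tested as a dashed line. List medians run from -0.79 for iron uptake to 0.54 for iron export, and genes on both sides of 0 occur in every list.

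Bulk RNA cannot tell fewer cells of a type from less RNA per cell, so the summed levels of marker lists are given beside these values. Of 10 microglia markers, 9 were below both controls in the knockout library and 1 lay between them, and Siglech was called lower (adjusted p = 0.0324, edgeR), with a summed level of 13338 CPM in the knockout library, against 18438 CPM in control 5 and 26351 CPM in control 6. Border-associated macrophage markers summed to 637 CPM in the knockout library, against 695 and 1062 CPM in control 5 and control 6, with 3 of 8 above both controls and 2 below. Stab1, the most abundant of them, had 244 CPM in the knockout library, against 302 and 654 CPM. Erythroid markers, looked up because red cell precursors hold much Tfrc and haem, summed to 55.7 CPM in the knockout library, against 68.9 and 94.2 CPM. Of 18 looked up, 10 were in the tables, with 4 of them above both controls and 3 below. Chosen after their values were seen, Epor reads numbered 56 in the knockout library, against 458 and 434 in controls, and Gata1 reads 50 against 0 and 0. Without Epor the sum was 52.6 CPM in the knockout library, against 43.3 and 62.0 CPM, so whether the knockout was lowest or lay between the controls rested on that gene. Hba-a1, an alpha globin and the most abundant of them, had 27.6 CPM in the knockout library and 31.7 ± 4.81 CPM in controls (SD, n = 2). Monocyte and neutrophil markers summed to 203 CPM in the knockout library, against 162 and 194 CPM (3 of 6 above both controls, 1 below). Endothelial markers summed to 26.5 CPM against 43.8 and 36.5 CPM (2 of 5 above, 2 below), and neural markers to 194 CPM against 200.4 and 234 CPM (4 of 9 above, 2 below). Several of these markers were at 0 in 1 control library, among them Lyve1, Mpo and Tbr1 in control 5 and Cldn5 in control 6. Among these lists the most abundant genes were Ccr2 at 93.0 CPM in the knockout library and 129 ± 12.6 CPM in controls, Pecam1 at 3.89 against 23.9 ± 4.79 CPM, and Nes at 97.0 against 105 ± 11.5 CPM (SD, n = 2). The part of cell makeup in these results was not tested.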

How the data were processed

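Sorted microglia RNA, 2 µg per library, was prepared with an Illumina TruSeq kit, per the labels. The tools named in the submitters' processing notes are HTSeq 0.6.0, TopHat2 2.0.12 and Bowtie2 2.2.3, with mm9 as the build. However, 89.9% of the 18480 deposited gene positions that GENCODE M21 also holds are identical to it, so coordinates are on GRCm38. Each of the 2 deposited tables pairs the knockout with 1 control. Per the file headers they hold raw read counts per gene, a normalised column that the values show to be CPM, fold changes (ratio), log2 fold changes and p-values. How the authors made their p-values is not given in the sources used here. Counts of knockout reads were identical in both tables.

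Counts of genes in both tables were fitted with edgeR 4.0.16 in R 4.3.3 (filterByExpr, TMM, quasi-likelihood F test, two-sided, Benjamini-Hochberg over all genes). Each gene had 1 residual degree of freedom, and its variance was moderated over all genes. A standard error is the log2 fold change over the root of F. Log2 ratios between single libraries used a prior count of 2, and folds are ratios of CPM. A gene is above or below both controls by its CPM. The script was tested on simulated data. Alternatives were DESeq2 1.42.0, other scalings and filters, genes of either table, and leaving out a control. Levels per length use the principal transcript in GENCODE M21.

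Beside the members and Arid1a, the rule named from each pathway list any gene called, the 2 most abundant genes that are no member, and up to 3 more at 2-fold or more beyond both controls with a mean of 5 CPM or more. One gene that this rule named is not reported here. From each marker list it named the most abundant gene. Other genes named were chosen after their values were seen. The members and lists were chosen with earlier results of these data known.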

Additional observations from a re-analysis of the deposited data

How the results depend on the processing

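No paired analysis was possible because the groups share no replicate number. Of 70 member fold changes under alternatives with a test, 67 kept their direction and their side of the threshold. The DESeq2 Wald test called 2 members, Fth1 and Slc11a1, where edgeR called 0, and Hmox1 had a log2 fold change of -0.0069 with no low-count filter. Over the edgeR alternatives and the Wald test, adjusted p ran from 0.00389 to 0.499 for Fth1, from 0.00838 to 0.685 for Slc11a1 and from 0.590 to 0.955 for Tfrc. Genes called numbered 6 in the main fit, 0 under DESeq2 size factors (895 at an unadjusted p under 0.05), 0 under upper-quartile scaling (818) and 0 without a filter on low counts (948), 44 at 5 CPM or more in 2 libraries, 10 with genes of either table and 215 with the DESeq2 Wald test. Scaling by library totals alone put the median of all genes at 0.17 instead of 0.05, and the list medians at 0.20 for storage, 0.66 for export and 0.42 for haem synthesis. The export median was 1.34 with no low-count filter and 0.086 at 5 CPM or more. The cause of these shifts was not tested.

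Leaving out control 5 or control 6 gives values with no test. The direction then changed in 2 of 20 member values, Hmox1 (-0.39 without control 5) and Slc11a2 (0.15 without control 6). The member median was then -0.18 to 0.35, and list medians were -1.17 to 0.15 for iron uptake, 0.19 to 0.24 for haem synthesis, 0.029 to 0.41 for mitochondrial genes and -0.13 to 0.28 for regulators. The log2 fold change of Tfrc was 0.81 without control 5 and 2.54 without control 6. The union of all exons as length was a choice made after seeing the data. With it, Fth1 over Ftl1 was 0.795 in the knockout library, against 0.316 in control 5 and 0.340 in control 6. For Fth1 this union is longer than the deposited gene span, so the changed order of the chains in the knockout library rests on a length that may be overstated. How the libraries compare in this ratio does not depend on the length used.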
